A study of Mus musculus with 8 samples.

Results

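The cytochrome P450 genes of the mouse lung were described in a control group, an LPS group and an LPS and YW3-56 dual-treatment group. Members were the protein-coding genes whose symbol starts with Cyp, a family number, a letter and a gene number. Of 99 such genes, *Cyp1a1*, *Cyp1a2*, *Cyp1b1* and *Cyp2f2* were left out, which gave 95 members among 55416 genes listed in the count files. *Cyp51* and *Cyp2ab1* are P450 genes whose symbols do not have this form, and they were not members.

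Lung RNA of 8 female mice aged 6 to 8 weeks was sequenced; the strain is C57BL/6 in the labels and C57BL/6J in the methods. The control group (mice 1, 2 and 4) received the DMSO vehicle into the tail vein and then saline into the peritoneum. The LPS group (mice 1, 6 and 7) received intraperitoneal lipopolysaccharide, the endotoxin of Gram-negative bacteria, at 35 mg per kg. The dual-treatment group (mice 2 and 5) received the same LPS dose 0.5 h after 10 mg per kg of YW3-56 in DMSO. YW3-56 is an inhibitor of peptidylarginine deiminases, the enzymes that convert arginine in proteins to citrulline. The LPS group is described as given LPS only, and no DMSO is named for it. Vehicle and inhibitor therefore cannot be told apart in the dual-treatment group against LPS. If none was given, LPS and the absence of DMSO cannot be told apart in LPS against control. Lungs were taken about 24 h after LPS. Total counts per library ranged from 19061949 to 20908608, and the files give 1 library per mouse.

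P450 enzymes are heme proteins that insert 1 atom of molecular oxygen into a substrate. Those of the endoplasmic reticulum take electrons from P450 oxidoreductase, encoded by *Por*, and the mitochondrial ones take them from ferredoxin. In the lung they are known for the metabolism of inhaled chemicals in club cells and alveolar type 2 cells, and for turning over fatty acids, retinoic acid, sterols and vitamin D.

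Levels are given as CPM, counts relative to the library size after edgeR's trimmed mean of M values scaling. Where genes are set against each other, CPM was divided by the length of the merged exons in kilobases. A gene was called when its fold change was over 2 and edgeR (quasi-likelihood, Benjamini and Hochberg over all 18560 genes tested) gave an adjusted p under 0.05.

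The tissue label was checked against marker lists. The 7 alveolar type 2 markers, led by *Sftpc*, summed to between 17118 and 40538 CPM in the 8 libraries, and the 5 club cell markers, led by *Scgb1a1*, to between 26592 and 70943 CPM. The 7 hepatocyte markers summed to 1.24 to 2.66 CPM, with *Alb* the most abundant by its mean in control (0.598 to 0.892 CPM), *Ambp* over all 8 libraries, and *Serpina1a* at 0 in each library. This matters for P450 genes because many of them are known mainly from liver.

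LPS mice 6 and 7 stood apart from the other 6 libraries. The 7 squamous epithelium markers summed to 5.58, 10.7 and 11.0 CPM in control mice 1, 2 and 4. They summed to 0.949, 707 and 1984 CPM in LPS mice 1, 6 and 7, and to 8.58 and 21.9 CPM in dual-treatment mice 2 and 5. *Krt13* (286 and 887 CPM) and *Krt4* (293 and 819 CPM) were the most abundant of them in LPS mice 6 and 7, and *Krt14* in the controls and the dual-treatment mice. The 6 skeletal muscle markers summed to 9.49, 18.9 and 13.7 CPM in the control group, to 16.8, 411 and 1091 CPM in the LPS group, and to 4.81 and 6.41 CPM in the dual-treatment group. *Acta1* was the most abundant of them in LPS mice 6 and 7 (210 and 600 CPM), where in control it was at 0 to 0.690 CPM. No marker of either list was at 0 in all libraries. Where a named member lost or gained a call without both of these libraries, its value without them is given. Leaving out both leaves mouse 1 as the only LPS library, and leaving out a dual-treatment mouse leaves 1 library there, so the spread in those fits comes from the other groups and their values are descriptions.

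Members with little or no expression made up most of the family. No count was recorded in any library for 31 members, and another 31 had at least 1 count but did not pass the filter on low counts, the highest count of any of them being 11 in a library. The other 33 members were tested. A member could pass that filter through a single group in which it was high, so the counts below describe the tested members and not the family.

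In LPS against control, 6 of the 33 tested members were upregulated and 15 were downregulated. Over all genes tested, 17.9% were called higher and 21.3% lower in this comparison. The median log2 fold change of the tested members was -0.84, beside -0.01 for all genes tested. The share of members called higher was 18.2%, near that of all genes, and the share called lower was 45.5%. Without LPS mouse 7 the number called higher was 3, since *Cyp4f39* lost its call and *Cyp11a1* and *Cyp2c65* no longer passed the filter, and with LPS mice 6 and 7 both left out it was 4 higher and 14 lower. Of those 4, *Cyp3a57* was not among the 33 tested in the main fit, and it had 11 counts in LPS mouse 1.

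In the dual-treatment group against control, 2 members (*Cyp4f18* and *Cyp7b1*) were upregulated and 1 (*Cyp4a12b*) was downregulated, where 5.25% of all genes were called higher and 1.90% lower. The median log2 fold change of the tested members was -0.18, beside 0.00 for all genes tested. The number called lower was 0 without control mouse 2, control mouse 4 or dual-treatment mouse 2, and 2 without control mouse 1 or dual-treatment mouse 5. With RLE size factors and with DESeq2 it was 2, against 1 in the main fit.

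Against LPS, the dual-treatment group had 10 members upregulated and 5 downregulated, where 19.8% of all genes were called higher and 14.0% lower. The median of the tested members was 0.78, beside 0.06 for all genes. Scaling by library size alone gave 17 higher and 4 lower in this comparison, and it moved the median of all genes by 0.32. The number called lower was 3 without LPS mouse 6, LPS mouse 7, dual-treatment mouse 2 or dual-treatment mouse 5, and 2 without both LPS mice 6 and 7. Without LPS mouse 6, mouse 7 or both, *Cyp11a1* and *Cyp2c65* were not tested. The 3 comparisons share libraries, so their values are given side by side and were not counted against each other.

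**Figure D1:**
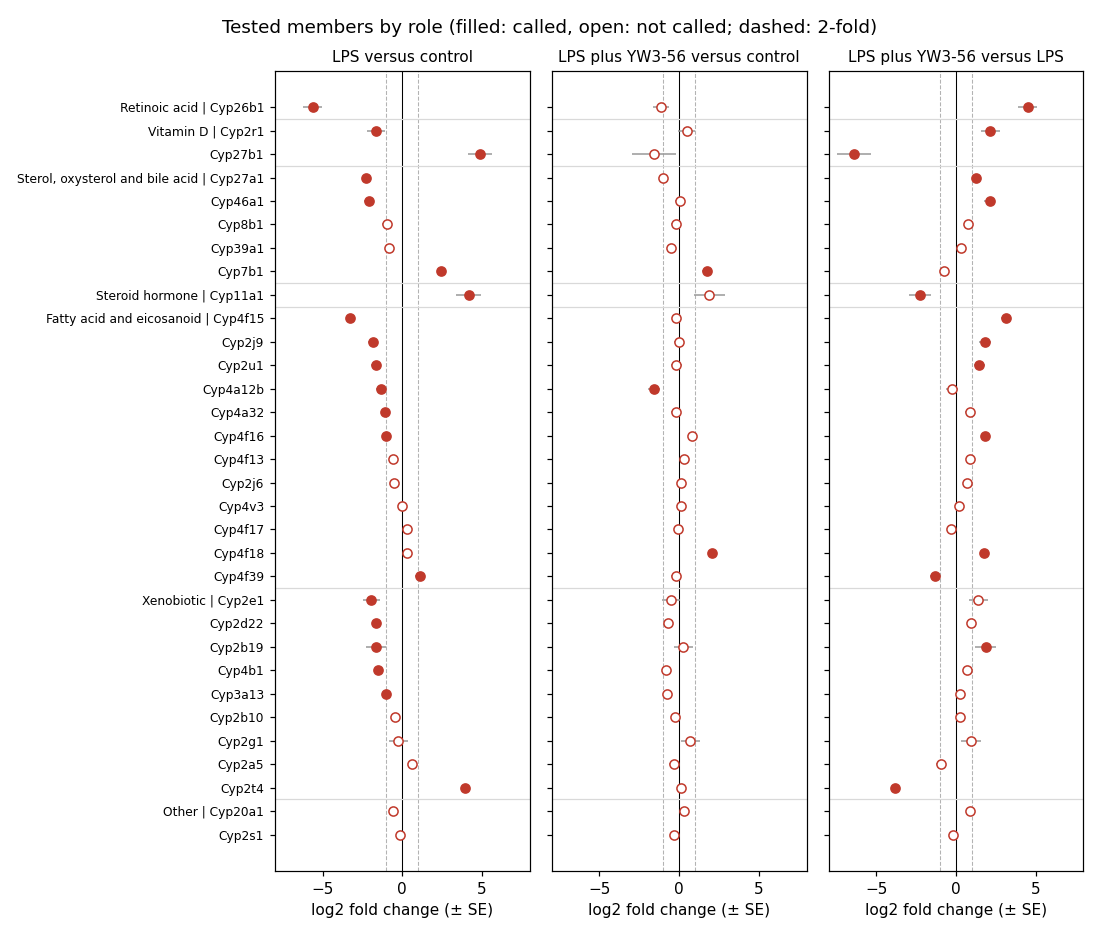
Log2 fold change (horizontal axis, ± SE from edgeR) of the tested members except *Cyp2c65*, grouped by role, in the 3 comparisons. Filled points passed the call and open points did not; dashed lines mark a fold of 2. *Cyp26b1* lies at -5.63 in LPS against control and at 4.49 in the dual-treatment group against LPS, and *Cyp27b1* lies on the opposite sides.

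*Retinoic acid.* *Cyp26b1* encodes an enzyme that breaks down retinoic acid, the hormone form of vitamin A, and it was the member with the largest fall. It was read at 446, 110 and 236 CPM in control mice 1, 2 and 4, at 4.33, 3.58 and 8.04 CPM in LPS mice 1, 6 and 7, and at 82.9 and 157 CPM in dual-treatment mice 2 and 5. The LPS values lay below those of the other 5 mice, and the dual-treatment values overlapped the controls, which differed among themselves by more than those of the other abundant members. In LPS the level was 49.5-fold lower than in control (log2 fold change -5.63 ± 0.58 SE, edgeR adjusted p = 2.39e-05, lower in 3 of 3 mice). The dual-treatment level was 22.5-fold higher than in LPS (log2 fold change 4.49 ± 0.57 SE, edgeR adjusted p = 0.000156) and was not called against control (-1.14 ± 0.53, edgeR adjusted p = 0.179), though it was with no filter on low counts (-1.14, edgeR adjusted p = 0.00953). Leaving out control mouse 1, the highest, gave -5.02 for LPS and -0.53 for the dual-treatment group, each against control. The other 2 members of this role did not pass the filter. *Cyp26b1* lies on the minus strand of chromosome 6 (chr6:84548396-84570890, GRCm39).

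Of the 15 retinoid partner genes, 3 were upregulated and 3 downregulated in LPS against control. The counts for the dual-treatment group were 1 and 2 against control, and 4 and 4 against LPS. *Lrat*, whose enzyme stores retinol as its ester, was at 130, 126 and 144 CPM in control, 4.39, 2.60 and 3.46 CPM in LPS, and 6.13 and 43.5 CPM in the dual-treatment group. Dual-treatment mouse 2 lay close to the LPS group and mouse 5 between the groups. *Rarg*, a retinoic acid receptor, fell by 2.54 on the log2 scale in LPS. *Stra6*, a receptor that takes up retinol, rose by 4.09 and *Crabp2*, which carries retinoic acid in the cell, rose by 3.37. *Aldh1a1*, the most abundant gene of the list, was at 836, 1001 and 835 CPM in control and 536, 591 and 666 CPM in LPS, a difference under the fold required for a call.

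Endothelial and alveolar type 1 markers were set beside *Cyp26b1*. Of 6 endothelial markers 4 were lower in LPS than in control and 4 were higher in the dual-treatment group than in LPS. The list, led by *Cdh5* over all 8 libraries, summed to 2742, 3061 and 3172 CPM in control, 1969, 1619 and 1575 CPM in LPS, and 2852 and 2974 CPM in the dual-treatment group. *Tek* fell by 3.28 on the log2 scale in LPS while *Cldn5* was at 577, 626 and 649 CPM in control and 638, 610 and 576 CPM in LPS. Of 5 alveolar type 1 markers, 2 were lower in LPS than in control, and 2 were higher and 1 lower in the dual-treatment group than in LPS. This list, led by *Ager*, summed to 3785, 3536 and 3657 CPM in control, 3393, 2899 and 1967 CPM in LPS, and 1939 and 2552 CPM in the dual-treatment group, which thus lay below control. Within this list *Rtkn2* was at 310, 317 and 289 CPM in control, 6.59, 4.50 and 4.97 CPM in LPS, and 129 and 163 CPM in the dual-treatment group. *Pdpn* went the other way, at 132, 112 and 107 CPM in control and 263, 241 and 167 CPM in LPS. Its dual-treatment values were 100 and 97.6 CPM. On the log2 scale *Pdpn* (0.94), *Ager* (-0.26) and *Hopx* (-0.11) were not called in LPS against control. No marker of either list was at 0 in all libraries. In whole lung, fewer cells of a type and less RNA per cell cannot be told apart, and the part of these markers in the results was not tested.

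*Vitamin D.* *Cyp27b1* encodes the mitochondrial enzyme that makes the active hormone from 25-hydroxyvitamin D. Its counts were 8, 1 and 0 in control, 74, 64 and 88 in LPS, and 0 and 2 in the dual-treatment group, against a total of about the same size in each library. The LPS mice stood at 4.39, 3.70 and 4.91 CPM, apart from the other 5 mice at 0 to 0.391 CPM. The rise in LPS against control was 29.1-fold (log2 fold change 4.86 ± 0.77 SE, edgeR adjusted p = 0.000383, higher in 3 of 3 mice). Without control mouse 1, which held 8 of the control counts, 1 count was left in control, and the fitted log2 fold change of 7.20 rests on it. Because the dual-treatment group held 2 counts in all, its ratio to LPS is given with a counting interval: LPS was 97.2-fold higher (exact 95% interval 26.6 to 808, counting error only; edgeR log2 fold change -6.42 for the dual-treatment group against LPS, adjusted p = 0.000708). That log2 fold change was -5.55 without dual-treatment mouse 2. Without dual-treatment mouse 5 the group held 0 counts and no fold can be given. *Cyp2r1*, which makes 25-hydroxyvitamin D, went the other way at lower levels, with 0.930, 0.751 and 1.29 CPM in control, 0.0593, 0.462 and 0.391 CPM in LPS, and 1.36 and 1.40 CPM in the dual-treatment group. Its fall in LPS (log2 fold change -1.67 ± 0.57 SE, edgeR adjusted p = 0.0251) was lost without control mouse 4 (-1.43, edgeR adjusted p = 0.0886). LPS mouse 1 held 1 count of it, so a value without LPS mice 6 and 7 would rest on that count. The vitamin D breakdown gene *Cyp24a1*, outside the rule for naming, did not pass the filter.

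Of the 5 vitamin D partner genes, 1 rose and 1 fell in LPS, and 0 of 5 were called in the dual-treatment group against control by edgeR. The vitamin D receptor gene *Vdr* stood at 8.56, 7.70 and 8.74 CPM in control, 39.6, 30.1 and 30.7 CPM in LPS, and 14.5 and 10.4 CPM in the dual-treatment group. Its rise in LPS was 2.00 ± 0.17 on the log2 scale. *Lrp2*, an uptake receptor for vitamin D binding protein, fell by 1.47 in LPS. *Rxra*, the most abundant gene of the list, was at 103, 113 and 106 CPM in control and 95.6, 103 and 134 CPM in LPS.

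*Sterols, oxysterols and bile acids.* Of 6 members of this role, 5 were tested; in LPS *Cyp7b1* rose, and *Cyp27a1* and *Cyp46a1* fell. *Cyp7b1* encodes the oxysterol hydroxylase that acts on 25- and 27-hydroxycholesterol. It was at 4.06, 2.21 and 1.93 CPM in control, 15.5, 16.5 and 12.7 CPM in LPS, and 8.89 and 9.13 CPM in the dual-treatment group. The 3 groups did not overlap, and the dual-treatment values lay between the others. The rise was 5.46-fold in LPS (log2 fold change 2.45 ± 0.27 SE, edgeR adjusted p = 3.93e-05) and 3.30-fold in the dual-treatment group (1.72 ± 0.29, edgeR adjusted p = 0.00429), and the difference between these groups was not called (-0.73 ± 0.29, edgeR adjusted p = 0.0510).

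*Cyp27a1*, the mitochondrial sterol 27-hydroxylase, was at 25.7, 32.1 and 31.4 CPM in control, 6.29, 5.08 and 7.26 CPM in LPS, and 12.0 and 18.0 CPM in the dual-treatment group. The groups did not overlap. The fall in LPS was 4.78-fold (log2 fold change -2.26 ± 0.20 SE, edgeR adjusted p = 9.74e-06, lower in 3 of 3 mice). Its difference between the dual-treatment group and LPS (1.27 ± 0.21) dropped under the fold required for a call without dual-treatment mouse 5, where it was 0.92. Against control the dual-treatment value was -0.98 ± 0.21, just under that fold, and it passed without control mouse 1 (-1.08), without dual-treatment mouse 5 (-1.34), and with RLE size factors or DESeq2. *Cyp27a1* overlaps *Prkag3* of the opposite strand over 1088 of its 3321 exon bases, and *Prkag3* fell by 2.06 in LPS; how the counting treated strand is not stated, so reads of the shared stretch cannot be told apart. *Cyp46a1*, the cholesterol 24-hydroxylase, was low but even, at 2.20, 2.30 and 2.07 CPM in control, 0.475, 0.404 and 0.670 CPM in LPS, and 2.27 and 2.24 CPM in the dual-treatment group. The LPS values were the lowest and the other groups overlapped (LPS against control -2.07 ± 0.31 SE, edgeR adjusted p = 0.000297; dual-treatment group against LPS 2.11 ± 0.34, edgeR adjusted p = 0.000564). *Cyp39a1*, an oxysterol 7-alpha-hydroxylase among the 10 members with the highest control level per kilobase, was at 21.6, 24.5 and 22.8 CPM in control and 15.1, 10.7 and 12.6 CPM in LPS. Its log2 fold change of -0.84 was under the required fold; with scaling by library size alone it was -1.13 and was called.

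Of the 8 oxysterol partner genes 6 were tested, and 1 rose and 2 fell in LPS. *Ch25h*, which makes 25-hydroxycholesterol, rose by 3.04 in LPS and by 3.08 in the dual-treatment group on the log2 scale, both against control. The oxysterol receptor gene *Nr1h3* was at 58.4, 68.9 and 74.6 CPM in control, 14.1, 14.9 and 10.3 CPM in LPS, and 97.8 and 126 CPM in the dual-treatment group. *Nr1h2*, the most abundant gene of the list over all 8 libraries, was at 130, 123 and 135 CPM in control and 213, 206 and 218 CPM in LPS, under the fold required.

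*Steroid hormones.* Of 6 members only *Cyp11a1*, the cholesterol side-chain cleavage enzyme, was tested. It was below the level set for naming a gene and is named here after its values were seen. Its counts were 1, 1 and 0 in control, 10, 10 and 15 in LPS, and 4 and 2 in the dual-treatment group. With 2 counts in the control group, the ratio of LPS to control was 21.3 (exact 95% interval 5.48 to 183, counting error only; edgeR log2 fold change 4.16, adjusted p = 0.000979). It was not tested in this comparison without LPS mouse 6, without LPS mouse 7, without both, with only the compared groups fitted, or when a mean of 1 CPM was required. Its call in the dual-treatment group against LPS was lost without either dual-treatment mouse (edgeR adjusted p = 0.0519 without mouse 2 and 0.141 without mouse 5) and with no filter on low counts (0.0588). The 4 adrenal cortex markers, led by *Star*, summed to 9.44, 11.4 and 12.1 CPM in control, 6.64, 7.10 and 6.42 CPM in LPS, and 6.26 and 8.08 CPM in the dual-treatment group, and 2 of the 4 were tested, with 0 called in each comparison by edgeR.

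Of 6 steroid partner genes 5 were tested. *Hsd11b1*, which turns inactive glucocorticoid into the active form, fell by 1.90 on the log2 scale in LPS, and *Hsd11b2*, which does the reverse, rose by 3.73. They changed by 1.72 and -3.14 in the dual-treatment group against LPS. *Srd5a1* fell by 3.31 in LPS.

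*Fatty acids and eicosanoids.* Of 27 members, which include the omega-hydroxylases of the Cyp4 families and the epoxygenases of the Cyp2j family, 12 were tested. In LPS against control 1 rose and 6 fell; in the dual-treatment group 1 rose and 1 fell against control, and 5 rose and 1 fell against LPS. *Cyp4f15* had the largest fall, from 13.1, 13.5 and 14.3 CPM in control to 1.19, 0.924 and 2.01 CPM in LPS, with 11.7 and 12.4 CPM in the dual-treatment group. The LPS mice lay far below, and the dual-treatment mice lay just below the controls. The fall was 9.88-fold (log2 fold change -3.30 ± 0.26 SE, edgeR adjusted p = 4.77e-06, lower in 3 of 3 mice), and the dual-treatment level was 8.69-fold above LPS (3.12 ± 0.27, edgeR adjusted p = 1.82e-05, higher in 2 of 2 mice).

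*Cyp4f18* encodes a leukotriene B4 omega-hydroxylase known from mouse neutrophils and other myeloid cells. It was at 8.66, 8.21 and 9.89 CPM in control, 8.78, 16.1 and 8.65 CPM in LPS, and 36.0 and 38.7 CPM in the dual-treatment group. The control and LPS values overlapped, LPS mouse 6 being the highest of them, and both dual-treatment mice lay above all others. The rise in the dual-treatment group was 4.19-fold against control (log2 fold change 2.07 ± 0.25 SE, edgeR adjusted p = 0.000756) and 3.35-fold against LPS (1.74 ± 0.25, edgeR adjusted p = 0.000282). It overlaps *Zfp961* of the opposite strand over 410 of its 2328 exon bases. *Zfp961* was lower in LPS (-1.80) and not called in the dual-treatment group against control (-0.26). Against LPS, *Zfp961* was higher in the dual-treatment group (1.54 ± 0.17 SE, edgeR adjusted p = 6.19e-05). As the strand used in counting is not stated, reads of the shared stretch cannot be told apart.

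Myeloid markers were set beside *Cyp4f18*. Of 7 macrophage and monocyte markers, 0 were higher and 3 lower in LPS against control, 4 were higher in the dual-treatment group against control, and 6 were higher against LPS. The list, led by *Csf1r*, summed to 287, 218 and 274 CPM in control, 230, 229 and 156 CPM in LPS, and 548 and 653 CPM in the dual-treatment group. Of 7 neutrophil markers, 6 were higher in LPS and 6 in the dual-treatment group, both against control, and 4 were higher and 1 lower in the dual-treatment group against LPS. That list, led by *S100a9*, summed to 214, 118 and 125 CPM in control, 2125, 2948 and 1843 CPM in LPS, and 1715 and 2387 CPM in the dual-treatment group. The neutrophil sums of the LPS and dual-treatment groups overlapped. Among the 7, *Csf3r* (1.05), *Cxcr2* (1.48), *Retnlg* (1.49) and *Mmp8* (1.08) rose on the log2 scale in the dual-treatment group against LPS, *Ly6g* fell by 2.75, and *S100a8* (-0.08) and *S100a9* (-0.55), which make up most of the sums, were not called. No marker of either list was at 0 in all libraries, and their part in the *Cyp4f18* result was not tested.

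Of the 6 eicosanoid partner genes, 2 rose in LPS and 3 in the dual-treatment group, both against control, and 0 were called between these groups by edgeR. *Ltb4r1*, a leukotriene B4 receptor, rose by 2.25 in LPS and by 2.38 in the dual-treatment group. *Alox5ap*, a cofactor of leukotriene synthesis, rose by 1.35 and 2.08. *Ptgis*, the most abundant gene of the list and itself a P450-type enzyme that makes prostacyclin, was at 127, 110 and 121 CPM in control and 126, 142 and 101 CPM in LPS.

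*Cyp4f16* fell in LPS and was highest in the dual-treatment group. It was at 17.2, 15.2 and 19.9 CPM in control, 7.95, 7.74 and 9.99 CPM in LPS, and 27.5 and 33.4 CPM in the dual-treatment group, with no overlap between groups. The fall in LPS was 2.03-fold (-1.02 ± 0.16 SE) and went under the fold required without control mouse 4 (-0.92), LPS mouse 1 (-0.97) or LPS mouse 6 (-0.95), and with RLE size factors (-0.99) or DESeq2 (-0.99), while the difference between the dual-treatment group and LPS was 3.55-fold (1.83 ± 0.17 SE, edgeR adjusted p = 2.99e-05). *Cyp4f39*, a fatty acid hydroxylase known for making the ceramides of the skin barrier, was at 3.82, 4.51 and 6.02 CPM in control, 6.88, 9.99 and 13.7 CPM in LPS, and 4.27 and 3.95 CPM in the dual-treatment group. Within LPS it was lowest in mouse 1 and highest in mouse 7, the order of the squamous marker sums of 0.949, 707 and 1984 CPM. Its rise (1.09 ± 0.27 SE, edgeR adjusted p = 0.00597) was lost without control mouse 1 (0.95), without LPS mouse 7 (0.83), with scaling by library size alone (0.83), and without LPS mice 6 and 7 together (0.53). Its lower level in the dual-treatment group against LPS (-1.31 ± 0.32 SE) was -0.75 without those 2 mice. The part of the squamous genes in it was not tested beyond these values.

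These genes are neighbours. On chromosome 17, 8 Cyp4f members lie within chr17:32671694-33166434 (GRCm39), and 5 of them were tested. *Cyp4f39* and *Cyp4f17* lie next to each other on the plus strand, and next comes *Cyp4f16*; their log2 fold changes in LPS were 1.09, 0.29 and -1.02. *Cyp4f15* lies further along at -3.30 and *Cyp4f13* at the far end at -0.56. *Cyp4f17* and *Cyp4f13*, outside the rule for naming, are given here for their place in the row. *Cyp4f18* lies apart from them on chromosome 8. Reads of such related genes can be shared, and how the counting treated reads with several matches is not stated, so the values of the Cyp2, Cyp3a, Cyp4a and Cyp4f genes are uncertain in that respect.

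**Figure D2:**
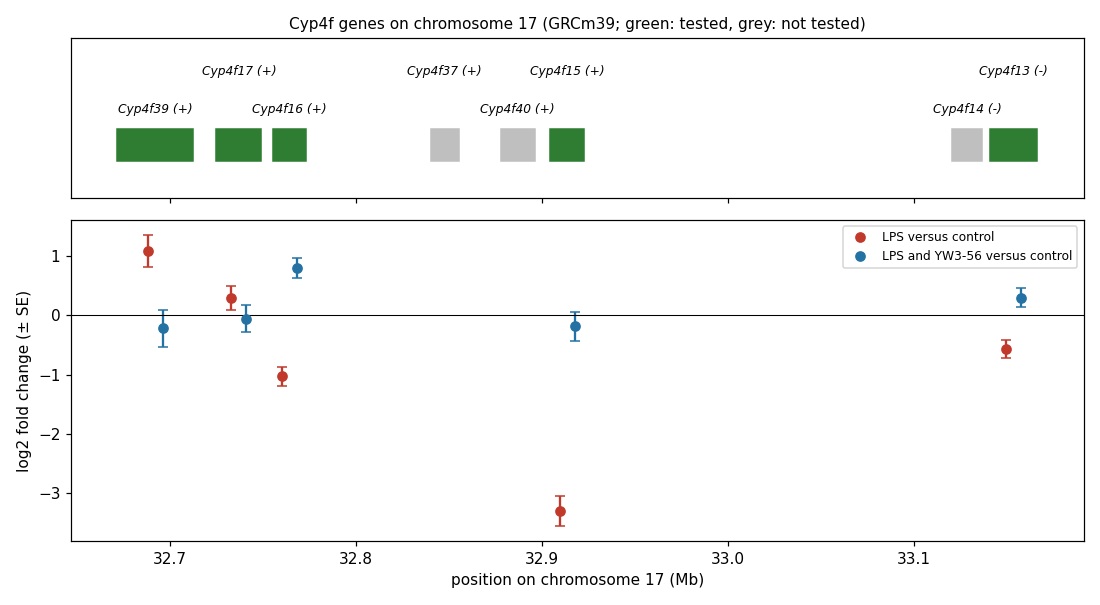
Positions of the Cyp4f genes of chromosome 17 (horizontal axis in Mb, GRCm39) above the log2 fold change of each tested gene (vertical axis, ± SE from edgeR) in LPS and in the dual-treatment group, each against control. *Cyp4f39* lies above 0 in LPS at 1.09 and *Cyp4f15* furthest below at -3.30.

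The epoxygenase gene *Cyp2j9* was at 2.74, 4.60 and 4.87 CPM in control, 0.949 to 1.44 CPM in LPS, and 3.18 and 4.87 CPM in the dual-treatment group. The LPS values lay below the rest (LPS against control -1.84 ± 0.33 SE, edgeR adjusted p = 0.000869; dual-treatment group against LPS 1.82 ± 0.36, edgeR adjusted p = 0.00185). Its neighbour *Cyp2j6*, outside the rule for naming, had a log2 fold change of -0.53 in LPS and was not called. *Cyp2u1*, a fatty acid hydroxylase, fell by 1.65 in LPS. Its higher level in the dual-treatment group against LPS (1.46) lost its call without dual-treatment mouse 5 (1.02). That call was also lost without LPS mice 6 and 7 together (1.38), the fold staying over that required in both settings. *Cyp4a12b* was at 2.15, 3.33 and 2.57 CPM in control, 0.712, 1.16 and 1.28 CPM in LPS, and 0.908 and 0.878 CPM in the dual-treatment group, so that both treated groups lay below control. Its call against control in the dual-treatment group (-1.58 ± 0.38 SE, edgeR adjusted p = 0.0212) was lost without control mouse 2 (-1.40), control mouse 4 (-1.64), dual-treatment mouse 2 (-1.64) or dual-treatment mouse 5 (-1.59). *Cyp4v3*, a fatty acid hydroxylase of the retina and other tissues, was at 34.8 to 43.7 CPM in the 8 mice and was not called in any of the 3 comparisons.

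*Cyp4a32* fell by 1.08 in LPS, a value that was -0.99 without LPS mouse 1. It overlaps the far more abundant *Cyp4b1* of the opposite strand over 657 of its 2175 exon bases. It held 17 to 53 counts a library where *Cyp4b1* held 5468 to 21512, so reads of the shared stretch cannot be told apart. In the dual-treatment group *Cyp4a32* held 49 and 45 counts, where the controls held 52, 50 and 53. Against control its log2 fold change there was -0.22, and that of *Cyp4b1* was -0.84. The part of *Cyp4b1* reads in the *Cyp4a32* counts was not tested.

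*Xenobiotics.* This role holds 46 members, of which 10 were tested; in LPS against control 2 rose and 5 fell, in the dual-treatment group none was called against control by edgeR, and against LPS 1 rose and 2 fell. On the scale of CPM per kilobase, *Cyp2b10* was the highest member in control at 274, followed by *Cyp4b1* at 130, *Cyp2a5* at 52.3 and *Cyp26b1* at 46.4. *Cyp2s1* at 30.2 and *Cyp2d22* at 23.1 came next. *Cyp4b1* hydroxylates fatty acids and activates lung toxicants such as 4-ipomeanol. It was at 995, 1010 and 936 CPM in control, 400, 316 and 319 CPM in LPS, and 488 and 610 CPM in the dual-treatment group. The 3 groups did not overlap, and the dual-treatment group lay between the others. The fall in LPS was 2.84-fold (log2 fold change -1.51 ± 0.14 SE, edgeR adjusted p = 1.18e-05, lower in 3 of 3 mice); the dual-treatment value against control was -0.84 ± 0.15, under the fold required, and -1.04 without dual-treatment mouse 5.

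*Cyp2b10*, a broad-range drug-metabolizing enzyme, was at 616, 591 and 532 CPM in control, 416, 459 and 363 CPM in LPS, and 556 and 414 CPM in the dual-treatment group. Control and LPS did not overlap, but the difference of -0.49 ± 0.14 on the log2 scale was under the fold required, and the dual-treatment mice overlapped both groups. *Cyp2d22* was at 119, 110 and 114 CPM in control, 30.3, 38.6 and 39.6 CPM in LPS, and 68.5 and 72.6 CPM in the dual-treatment group. It fell 3.16-fold in LPS (-1.66 ± 0.11 SE, edgeR adjusted p = 2.42e-06), and the difference between the dual-treatment group and LPS of 0.96 ± 0.12 passed the call without LPS mouse 6, without LPS mouse 7 (1.02) and with library size alone (1.28), and was 1.21 without both of these mice.

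**Figure D3:**
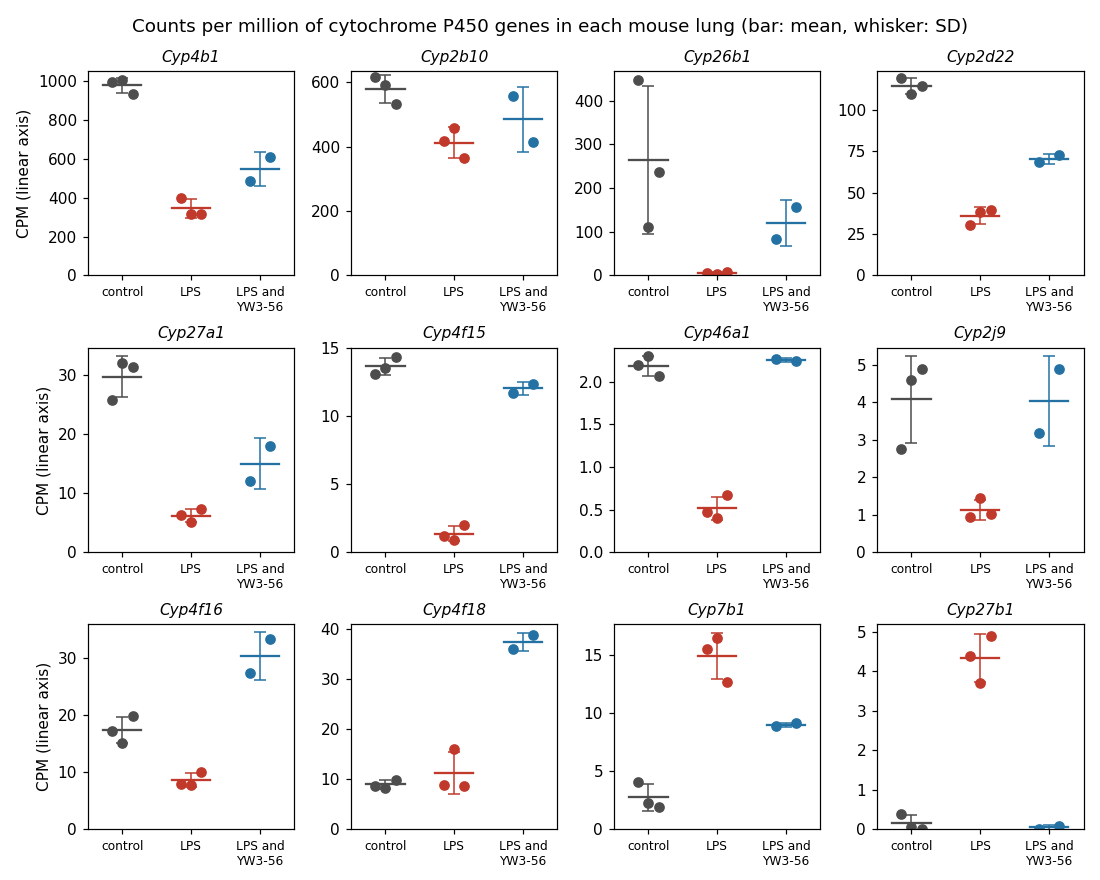
CPM (vertical axes, linear from 0) of 12 members in each mouse of the control, LPS and dual-treatment groups. Points are mice, bars are group means and whiskers are SD (3, 3 and 2 mice). *Cyp4f15* and *Cyp46a1* are low only in the LPS mice, *Cyp27b1* is high only there at 3.70 to 4.91 CPM, and *Cyp4f18* is high only in the dual-treatment mice at 36.0 and 38.7 CPM.

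*Cyp2e1*, which oxidizes ethanol and other small molecules, was at 9.39, 28.2 and 10.4 CPM in control, 1.72, 5.37 and 5.36 CPM in LPS, and 14.5 and 7.64 CPM in the dual-treatment group. Control mouse 2 was the highest, and the LPS values lay below the rest. The fall in LPS was -1.94 ± 0.53 SE (edgeR adjusted p = 0.00894), -1.26 without control mouse 2, and -3.21 without LPS mice 6 and 7. The dual-treatment group against LPS was at 1.41 (edgeR adjusted p = 0.0564). It was called with library size alone (1.71, edgeR adjusted p = 0.0291) and with no filter on low counts (1.43, edgeR adjusted p = 0.00162), and was 2.67 without those 2 mice. The 5 adipocyte markers, led by *Plin4* over all 8 libraries and by *Cidec* in control, summed to 44.0, 155 and 47.4 CPM in control, 28.1, 74.4 and 116 CPM in LPS, and 181 and 37.6 CPM in the dual-treatment group. None of these markers was at 0 in all libraries, and 1 of 5 was lower in LPS. Within control and within the dual-treatment group the mouse with the higher *Cyp2e1* had the higher adipocyte sum. In LPS mouse 1 was lowest in both, and mice 6 and 7 had near equal *Cyp2e1* with different sums. The part of these genes in the result was not tested.

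*Cyp2t4* was at 1.37, 1.27 and 1.33 CPM in control, 25.7, 17.9 and 18.3 CPM in LPS, and 1.32 and 1.54 CPM in the dual-treatment group. All LPS mice were high, and the other 2 groups overlapped. Its rise was 15.5-fold (log2 fold change 3.95 ± 0.21 SE, edgeR adjusted p = 8.97e-07, higher in 3 of 3 mice), and the dual-treatment group lay 14.4-fold below LPS (-3.85 ± 0.25, edgeR adjusted p = 5.77e-06). Of its 1650 exon bases, 1620 lie in exons of *Egln2*, a prolyl hydroxylase gene of the opposite strand. *Egln2*, which is outside the lists and was looked up because of the overlap, stood at 111, 113 and 123 CPM in control, 541, 443 and 434 CPM in LPS, and 116 and 119 CPM in the dual-treatment group. It rose by 2.03 ± 0.12 on the log2 scale in LPS. As the strand used in counting is not stated, *Cyp2t4* reads and *Egln2* reads cannot be told apart.

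*Cyp2a5*, a coumarin and nicotine hydroxylase, was at 88.0, 156 and 80.8 CPM in control, 131, 169 and 205 CPM in LPS, and 83.7 and 88.6 CPM in the dual-treatment group. Control mouse 2 lay within the LPS range, and no comparison was called; in the dual-treatment group against LPS the log2 difference was -0.97, and -1.12 without LPS mouse 1, where it was called, as it was with RLE size factors and DESeq2 (-1.02 in both). *Cyp3a13*, of a subfamily known for drug oxidation, fell 2.01-fold in LPS, at the edge of the fold required; on the log2 scale it was -0.90 without control mouse 2, -0.91 without LPS mouse 7, and -0.88 without LPS mice 6 and 7. It was -0.97 with RLE size factors and with DESeq2, and it also fell just short of the fold when a mean of 1 CPM was required. *Cyp2b19*, known from keratinocytes, was at 0.0578 to 1.36 CPM. Its fall in LPS (-1.63, edgeR adjusted p = 0.0407) did not pass without control mouse 1 (0.0937), control mouse 2 (0.0767), control mouse 4 (0.0645), LPS mouse 1 (0.0942) or LPS mouse 6 (0.0935), the values being edgeR adjusted p. Its rise in the dual-treatment group against LPS (1.88, edgeR adjusted p = 0.0337) did not pass without LPS mouse 1 (0.0754), LPS mouse 6 (0.0665) or dual-treatment mouse 5 (0.201), or with only the compared groups fitted (0.0702). Without LPS mouse 7 the log2 fold changes of *Cyp2b19* were -2.56 and 2.80. Without LPS mice 6 and 7 together its fall in LPS was -1.89 and did not pass. *Cyp2c65*, named here after its values were seen, had 12 and 22 counts in LPS mice 6 and 7 and 0 in the other 6 libraries. LPS was at least 4.51-fold higher than control and at least 4.78-fold higher than the dual-treatment group against a floor of 3 counts per library. The call against control was lost with DESeq2 (adjusted p = 0.149) and without control mouse 4 (edgeR adjusted p = 0.0520). That between the dual-treatment group and LPS was lost with DESeq2 (adjusted p = 0.208), and in edgeR with library size alone (adjusted p = 0.0568), without dual-treatment mouse 2 (0.118) and without dual-treatment mouse 5 (0.130). Without LPS mice 6 and 7 no counts were left, and the part of the squamous and muscle genes of those mice in this result was not tested.

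The 12 members of chr7:25501895-26858093 (GRCm39) include *Cyp2s1*, *Cyp2b10*, *Cyp2b19*, *Cyp2g1*, *Cyp2a5* and *Cyp2t4* as its 6 tested genes; *Cyp2g1* is outside the rule for naming. In LPS 1 rose and 1 fell among them. *Cyp2s1*, which is known from epithelia, was at 134, 160 and 154 CPM in control, 125, 102 and 183 CPM in LPS, and 132 and 111 CPM in the dual-treatment group, with control and LPS overlapping. Of the other groups of at least 8 neighbours, that of 10 members at chr4:114963434-115504999 had 3 tested, *Cyp4a12b*, *Cyp4a32* and *Cyp4b1*, all lower in LPS, and that of 8 at chr4:95915771-96552451 had 2, *Cyp2j6* and *Cyp2j9*. Of the 14 at chr19:38995462-40175777 only *Cyp2c65* was tested, of the 9 at chr15:82254727-82678509 only *Cyp2d22*, and of the 8 at chr5:145282089-146050097 none.

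*Cyp20a1*, a member with no known substrate, was at 17.9, 18.2 and 17.4 CPM in control, 12.0, 12.5 and 10.9 CPM in LPS, and 22.4 and 20.7 CPM in the dual-treatment group. The groups did not overlap, yet its log2 fold changes of -0.60, 0.28 and 0.87 were all under the fold required. With scaling by library size alone, that of the dual-treatment group against LPS was 1.20 and was called.

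Summed over all members, P450 counts were 2447 ± 166 CPM in control (SD, n = 3), 1303 ± 13.5 CPM in LPS (SD, n = 3) and 1711 ± 35.9 CPM in the dual-treatment group (SD, n = 2). The sums were 2631, 2399 and 2310 CPM in control mice 1, 2 and 4, 1301, 1291 and 1318 CPM in LPS mice 1, 6 and 7, and 1685 and 1736 CPM in dual-treatment mice 2 and 5. The groups did not overlap. *Cyp4b1*, *Cyp2b10* and *Cyp26b1* together made up 71.3% to 78.2% of the sum in control, 52.4% to 63.1% in LPS, and 66.9% and 68.0% in the dual-treatment group. Without those 3 genes the sums were 623 ± 59.1, 540 ± 77.3 and 557 ± 1.98 CPM, a difference between control and LPS of about the size of the spread between mice.

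The genes that serve or accompany P450 enzymes changed in different directions. *Por* was at 266, 317 and 303 CPM in control, 1226, 1149 and 1448 CPM in LPS, and 469 and 269 CPM in the dual-treatment group. LPS lay above all other mice (log2 fold change 2.11 ± 0.20 SE, edgeR adjusted p = 1.60e-05), so the electron donor was high where the summed P450 level was low. Of the 14 redox partner and heme genes, 3 rose in LPS and 0 fell, by edgeR. The other risers were *Fdx2*, a ferredoxin (2.45), and *Hmox1*, which breaks down heme (1.32). *Fdx1*, the other ferredoxin gene of the list, was not called. Whether *Fdx2* serves the P450 enzymes here was not tested. *Alas1*, the first enzyme of heme synthesis, was at 218, 323 and 311 CPM in control and 167, 157 and 181 CPM in LPS, under the fold required. Of 4 epoxide hydrolases, 1 fell in LPS, *Ephx1* by 1.12. All 5 flavin monooxygenases, another family that oxidizes foreign compounds, fell in LPS and rose in the dual-treatment group against LPS. *Fmo2*, the most abundant, was at 1464, 1329 and 1270 CPM in control, 207, 226 and 257 CPM in LPS, and 1040 and 898 CPM in the dual-treatment group, and *Fmo1* fell by 3.94 in LPS.

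Of 12 nuclear receptor and regulator genes, 8 were tested; 0 rose and 3 fell in LPS, by edgeR, and 1 rose and 2 fell in the dual-treatment group against LPS. The genes that fell in LPS were *Nr1i2*, a receptor for foreign compounds (-1.72), the fatty acid receptor gene *Ppara* (-1.83), and *Ahr*, a receptor for aromatic compounds (-1.20). *Nfe2l2*, the most abundant gene of the list, was at 204, 210 and 209 CPM in control, 403, 341 and 321 CPM in LPS, and 143 and 174 CPM in the dual-treatment group.

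Club cell and alveolar type 2 markers were set beside the xenobiotic genes. Of 5 club cell markers, 1 was higher and 0 lower in LPS, and 3 were lower in the dual-treatment group against LPS, by edgeR; the list summed to 33587, 41898 and 39527 CPM in control, 70943, 60680 and 59283 CPM in LPS, and 26592 and 29704 CPM in the dual-treatment group. Of 7 alveolar type 2 markers, 1 was higher and 2 lower in LPS; the list summed to 38598, 32412 and 40538 CPM in control, 29181, 20900 and 17118 CPM in LPS, and 21309 and 31593 CPM in the dual-treatment group. No marker of either list was at 0 in all libraries. Their part in the changes of *Cyp4b1* and *Cyp2d22* was not tested.

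RefSeq promoters, from a table on build GRCm38.p6, were at hand for 71 of the 95 members. They are shown for the gene with the largest fall, the 2 with the largest rises apart from *Cyp11a1* and *Cyp2c65*, and *Cyp4f18*, so that the start of each gene can be read beside its change. The 250 bases before the gene start were matched to GRCm39, each at 1 place, and bases within any annotated exon were left off. Capitals mark a TATA box (TATAAA), a binding site of the factor NF-Y (CCAAT) or a half-site of nuclear receptors (AGGTCA), each searched on both strands. A match is only a description of the letters.
Cyp26b1, chr6:84570891-84571042, minus strand: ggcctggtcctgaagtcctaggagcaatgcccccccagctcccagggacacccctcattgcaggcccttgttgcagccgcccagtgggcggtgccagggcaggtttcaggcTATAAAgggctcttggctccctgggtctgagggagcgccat
Cyp2t4, chr7:26852889-26853138, plus strand: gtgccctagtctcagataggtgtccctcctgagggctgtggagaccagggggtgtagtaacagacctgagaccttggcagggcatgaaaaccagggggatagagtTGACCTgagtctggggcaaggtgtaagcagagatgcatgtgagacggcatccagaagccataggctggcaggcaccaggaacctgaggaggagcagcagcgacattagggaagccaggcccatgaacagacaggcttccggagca
Cyp27b1, chr10:126883865-126884114, plus strand: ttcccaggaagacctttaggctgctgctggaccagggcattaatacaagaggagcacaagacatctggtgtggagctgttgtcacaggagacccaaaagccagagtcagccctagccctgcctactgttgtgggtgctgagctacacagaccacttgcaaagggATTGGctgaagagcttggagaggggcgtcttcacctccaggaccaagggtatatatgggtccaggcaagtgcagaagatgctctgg
Cyp4f18, chr8:72763479-72763720, minus strand: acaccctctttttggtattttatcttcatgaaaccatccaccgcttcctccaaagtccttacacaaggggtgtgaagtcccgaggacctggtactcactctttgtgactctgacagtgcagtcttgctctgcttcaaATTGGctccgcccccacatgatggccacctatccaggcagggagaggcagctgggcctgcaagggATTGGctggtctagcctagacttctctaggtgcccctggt
Of 32851 promoters in the table, 12.4% held TATAAA, 33.8% held CCAAT and 14.0% held AGGTCA in a window of 250 bases. The *Cyp26b1* stretch of 152 bases held 1 TATAAA, found in 7.38% of promoters over that length. *Cyp2t4* held 1 AGGTCA, *Cyp27b1* 1 CCAAT, and the *Cyp4f18* stretch of 242 bases held CCAAT at 2 places, a motif found in 33.2% of promoters over that length.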

How the data were processed

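Lung RNA of 8 mice was sequenced as paired-end reads. Per the labels and the study's methods, the authors used FastQC 0.11.9, Trim Galore, HISAT2 2.2.1 and featureCounts 2.0.1 on GRCm39 and deposited raw counts per gene, 1 file per mouse; the annotation release, the strand setting and the treatment of reads with several matches are not given in the sources used here, and library kits for poly(A) selection or ribosomal RNA removal are both named.

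Gene symbols, types and merged exon lengths came from GENCODE M39 on GRCm39, which held 54749 of the 55416 gene IDs; 667 were not matched. Counts were scaled with TMM factors and filtered with filterByExpr by group in R 4.3.3 with edgeR 4.0.16, and fitted with the quasi-likelihood test (glmQLFit, glmQLFTest) with 1 group factor over 8 libraries; p-values were adjusted by Benjamini and Hochberg over 18560 genes. The SE of a log2 fold change was its size divided by the square root of F. Groups were taken from the labels; the study's methods name 3 mice per group, and 2 dual-treatment libraries were analysed here. Depth was 19061949 to 20908608 counts. Intervals and floors (3 counts per library) cover counting error only. The script of the fit was tested on simulated data.

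The members, gene lists and rules were chosen with earlier results of these data known. Named members were called in at least 1 comparison with a mean of at least 1 CPM in a group, or were among the 10 with the highest control level per kilobase; other members with printed values are said to be outside that rule, except in the figures. The most abundant gene of a list was taken by its mean over 8 libraries unless a group is named. Genes named from a pathway or marker list were picked after their values were seen, and the counts cover each whole list. Alternatives were DESeq2 1.42.0, other size factors, other filters, other calling rules, fits of only the compared groups, leaving out each mouse, and leaving out LPS mice 6 and 7. Motifs were searched on both strands with Python 3.11.15.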

Additional observations from a re-analysis of the deposited data

How the results depend on the processing

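Over the 33 tested members and the 3 comparisons, 1156 log2 fold changes were recomputed under the alternatives: 1083 stayed on the same side of the call, 44 lost it, 29 gained it, and 0 called values changed sign. Changes of the calling rule aside, 13 of the 21 members called in LPS against control were tested in every alternative and kept the call in each, as were 2 of the 3 called in the dual-treatment group against control and 8 of the 15 called against LPS. *Cyp11a1* in LPS against control and *Cyp2r1* in the dual-treatment group against LPS were not lost either, but did not pass the filter in some alternatives.

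Among the counts of members in LPS against control, no filter on low counts gave 10 higher in place of 6, and glmTreat against a fold of 2 gave 8 lower in place of 15. In the dual-treatment group against control, the number lower was 2 with RLE size factors, 2 with DESeq2, 2 with no filter, 5 with no fold minimum and 0 with glmTreat, in place of 1, and glmTreat gave 1 higher in place of 2. In the dual-treatment group against LPS, the number higher was 17 with library size alone, 17 with no fold minimum and 6 with glmTreat, in place of 10; the number lower was 3 with a minimum mean of 1 CPM, 2 with glmTreat and 2 without LPS mice 6 and 7, in place of 5. glmTreat and the removal of the fold minimum are by construction a stricter and a looser rule; for the other settings the cause was not tested. The median log2 fold change in LPS against control was -1.13 with library size alone, -0.04 with no filter and -0.98 with the 2 compared groups fitted alone, in place of -0.84. Against LPS, the dual-treatment median was 1.10 with library size alone and 0.23 with no filter, in place of 0.78, and against control it was 0.00 with no filter, in place of -0.18.

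Leaving out 1 mouse at a time gave 3 to 6 higher and 12 to 15 lower in LPS against control, 2 higher and 0 to 2 lower in the dual-treatment group against control, and 7 to 11 higher and 3 to 6 lower against LPS. The medians ranged from -0.93 to -0.80, from -0.17 to 0.00 and from 0.63 to 0.81 in the same order. Leaving out a dual-treatment mouse, or LPS mice 6 and 7 together, left that group with 1 library, assumed to vary like the other groups. No paired analysis was made, because the methods describe mice randomly divided into groups and name no pairs. A mouse number found in 2 groups was not taken to mark a pair.

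With library size alone, the median of all genes moved by -0.28 in LPS against control and by 0.32 in the dual-treatment group against LPS.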

Other observations

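*Cyp51*, the lanosterol demethylase of cholesterol synthesis, is a P450 gene outside the naming pattern and was looked up after the results were seen. It was at 54.0, 55.9 and 51.7 CPM in control, 23.0, 20.3 and 25.4 CPM in LPS, and 25.0 and 31.4 CPM in the dual-treatment group. Both treated groups lay below control. It fell by 1.23 on the log2 scale in LPS (edgeR adjusted p = 1.92e-05), and the dual-treatment value against control was -0.93, under the fold required. *Cyp2ab1*, the other P450 gene whose symbol differs in form, was at 0.726 and 4.30 CPM in dual-treatment mice 2 and 5 and at 0.347 to 1.01 CPM in the other 6 mice, so that mouse 5 alone stood apart.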
